A study of Mus musculus with 10 samples.

Results

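The collagen gene family was examined in tumors that the study describes as 4T1 tumors. Its members were all genes of the expression table whose symbol is Col, a number, the letter a and a number, and 44 of the 21959 genes of the table matched. By the molecule their chains form, 11 were fibrillar collagens, 6 were basement membrane collagens, 9 were FACIT collagens (fibril-associated collagens with interrupted triple helices) and 18 were other collagens (microfibrillar, short chain, anchoring fibril, transmembrane, multiplexin and unclassed chains). 4T1 is a mammary carcinoma line from a BALB/c mouse. By the study's methods, the tumors grew from 4T1 cells injected under the abdominal skin of female BALB/c mice 5 to 6 weeks old. All mice carried these same cells, and the labels give no genetic change in either group. The 5 mice of the exercise group (E) were allowed voluntary running for 21 days, and the 5 mice of the non-exercise group (NE) were kept under ordinary husbandry. A piece of 1 tumor per mouse gave 1 mRNA library, and the tumors are named E1 to E5 and NE1 to NE5 by the replicate numbers of the labels. The libraries held 15045613 to 20646763 counted reads in E and 18706032 to 23092251 in NE.

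Collagens are secreted proteins in which chains wind around each other as a triple helix. The helix needs glycine at the start of each Gly-X-Y triplet, since only glycine fits at its core. Most fibrillar collagens have a long unbroken helix, and they pack into the rope-like fibrils of connective tissue, which fibroblasts make. Type IV collagens have a helix with many interruptions and join into the sheet-like network of basement membranes under epithelium and around vessels. FACIT collagens lie on the surface of fibrils, and type VI collagens form beaded microfibrils between fibrils and cells.

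The coding exons of the most abundant fibrillar and basement membrane members are shown because they hold the difference between an unbroken and an interrupted helix. Each is given 5′ to 3′ on the coding strand, with glycine codons that keep the Gly-X-Y register in capitals, from GRCm38 with the GENCODE annotation. The exons of Col3a1 (chr1:45325360-45325413, forward strand, coding exon 6), Col1a1 (chr11:94939904-94939957, forward strand, coding exon 8) and Col1a2 (chr6:4515481-4515534, forward strand, coding exon 8) are coding throughout.
Col3a1: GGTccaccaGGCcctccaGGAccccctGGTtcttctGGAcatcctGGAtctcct
Col1a1: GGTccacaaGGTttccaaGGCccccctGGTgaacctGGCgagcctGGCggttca
Col1a2: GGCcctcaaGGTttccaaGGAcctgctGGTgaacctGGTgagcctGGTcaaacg
The 3 exons were picked as the first coding exon of 54 bases that lies wholly inside a Gly-X-Y run of the gene. Each begins with a glycine codon and holds 6 of them in register. The exons shown of the basement membrane chains, Col4a1 (chr8:11209522-11209650, reverse strand, coding exon 46) and Col4a2 (chr8:11438555-11438629, forward strand, coding exon 35), begin and end inside a codon.
Col4a1: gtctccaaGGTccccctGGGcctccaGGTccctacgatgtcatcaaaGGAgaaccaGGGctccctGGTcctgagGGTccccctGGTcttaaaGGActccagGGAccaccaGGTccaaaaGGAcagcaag
Col4a2: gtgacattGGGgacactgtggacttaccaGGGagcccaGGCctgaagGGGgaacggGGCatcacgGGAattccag
The Col4a1 exon has 129 bases with 12 glycine codons in register, and the Col4a2 exon has 75 bases with 6. Both exons were picked because they hold a short break in the repeat, and in each 4 codons lie outside the repeat. Over the longest coding transcript of each member, the longest Gly-X-Y run was 216 to 344 triplets in the fibrillar collagens, which had 2 to 4 runs of at least 4 triplets. In the basement membrane collagens it was 39 to 66 triplets, with 16 to 24 runs. It was 32 to 113 triplets in the FACIT collagens and 23 to 87 in the other collagens. Exons of 54 bases made up 305 of 649 coding exons (47.0%) in the fibrillar class and 12 of 296 (4.05%) in the basement membrane class. The FACIT class had 109 of 432 (25.2%) and the other collagens 43 of 627 (6.86%).

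Some tumor pieces stood apart from the others, and these are named before the results. The skeletal muscle markers summed to 26659 CPM (counts scaled to a common library size) in NE4 against 9.76 to 3736 in the other tumors. The neutrophil markers summed to 287 CPM in E5 and to at most 47.3 in the others, and the macrophage or monocyte markers were lowest in NE1. The differentiated keratinocyte markers summed to 130.2 CPM in NE5 and to at most 2.41 elsewhere. Fibroblast markers were present in all 10 tumors, with each of the 8 listed genes read in every tumor, while the epithelial markers summed to only 20.4 to 48.7 CPM and 4 of their 8 genes passed the filter on low counts. Reads of 4 Y-linked genes were counted in all 10 tumors, 294 to 1380 per tumor, although the mice are described as female. Where these reads came from, and whether the cells are 4T1 cells as the study names them, was not tested. In bulk tumor RNA, fewer cells of a type and less RNA per cell cannot be told apart.

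Collagen reads made up a small and variable part of each library. The percent of counted reads on the 44 genes was 0.667, 0.809, 0.557, 0.901 and 2.20 in E1 to E5 and 0.441, 0.537, 0.561, 0.777 and 0.781 in NE1 to NE5. E5 was far above every other tumor, and the other tumors of E lay within or just above the range of NE. The E tumors averaged 1.03 ± 0.667% and the NE tumors 0.619 ± 0.152% (SD, n = 5 each), a difference of 0.407 percentage points. Without E5 the mean of E was 0.734 ± 0.152% (SD, n = 4) and the difference 0.114 points. Without both E5 and NE4 it was 0.154 points. The 95% Wilson interval of each tumor's share was at most 0.00741 points to either side, so counting error was small beside the spread between tumors. These intervals cover counting error only, since copies made by PCR were not told apart.

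**Figure D1:**
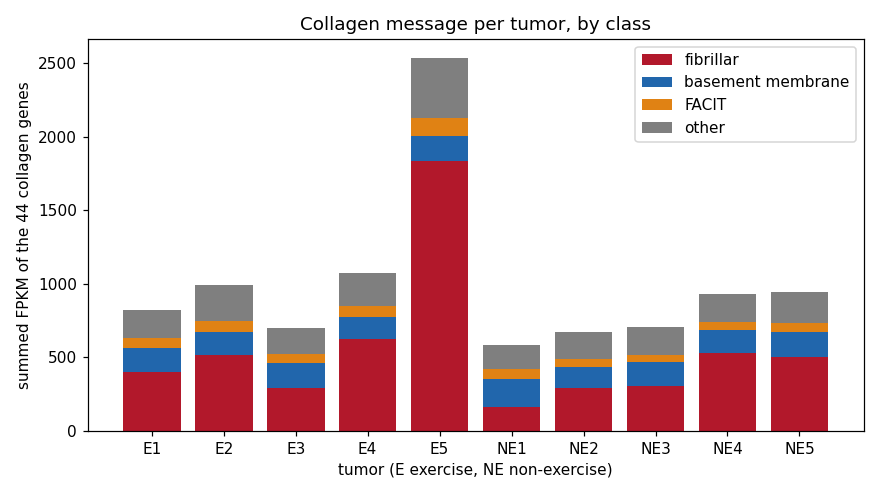
Summed FPKM of the 44 collagen genes in each tumor (horizontal axis, E exercise, NE non-exercise), stacked by class; each bar is 1 tumor. The fibrillar part ranges from 159.5 FPKM in NE1 to 1837 in E5, while the basement membrane part stays between 144 and 196 FPKM.

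The classes varied to very different degrees between tumors. FPKM (fragments per kilobase of transcript and per library size) divides reads by the deposited gene length. Levels of different genes can then be added, but sums, shares and ranks across genes depend on that length. Col1a2, with 171303 reads and a length of 12426 bases, had a lower mean FPKM than Col1a1, with 170481 reads and 6563 bases. The fibrillar collagens summed to 400.0, 513, 291, 623 and 1837 FPKM in E1 to E5 and to 159.5, 291, 307, 529 and 501 in NE1 to NE5. E5 was highest and NE1 lowest, and the groups overlapped. The basement membrane collagens summed to 151.5 to 170.2 FPKM in E and to 144 to 196 in NE. As a share of all collagen FPKM, the fibrillar class ran from 27.3% in NE1 to 72.3% in E5, and the basement membrane class from 33.6% in NE1 to 6.70% in E5. The FACIT class summed to 78.6 ± 24.8 FPKM (SD, n = 5) in the E tumors and 56.6 ± 7.24 in the NE tumors, and the other collagens to 252 ± 92.2 and 189 ± 16.5 (SD, n = 5).

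A few members carried most of the collagen message. The 5 most abundant genes, Col3a1, Col1a1, Col4a1, Col6a1 and Col1a2, held 64.7% of the collagen FPKM, and the 9 most abundant held 84.7%. Of the 44 members, 14 had a mean FPKM of at least 10, 22 had at least 1, and 31 had reads in every tumor. The other 13 had no reads in at least 1 tumor. Some chains known from cartilage had few reads. Col2a1, the main collagen of cartilage, had 11 reads over all 10 tumors, Col10a1, made by hypertrophic chondrocytes, had 7, and Col9a2, a chain of the cartilage FACIT type IX, had 2. Other such chains had more. The type IX chains Col9a1 and Col9a3 had 936 and 341 reads, and the type XI chains Col11a1 and Col11a2 had 4851 and 227.

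For the comparison of E and NE, every gene with enough reads for the filter was tested with edgeR's quasi-likelihood test. A call needed a false discovery rate (FDR) no higher than 0.05 and a fold change no smaller than 2. Of the 13517 genes tested, 0 (0%) were called, and 0 of the 32 collagen genes that passed the filter. The smallest FDR of any gene in edgeR, collagens included, was 0.897. DESeq2 and limma also called 0 genes at these thresholds, and the smallest FDR of a collagen gene in DESeq2 was 0.624. Without the fold change threshold, 3 genes had an FDR of at most 0.05 in DESeq2 (smallest 0.000208), and 0 of them were collagens. At an unadjusted p of at most 0.05, edgeR listed 657 genes (4.86% of those tested), and 5 of the 32 collagen genes (15.6%). Genes with such a p and a higher level in E were 347 (2.57%) over all genes, and the 5 collagen genes, Col5a1, Col24a1, Col6a1, Col12a1 and Col25a1, were all of this kind. With E5 left out, 3 of 32 collagen genes had an unadjusted p of at most 0.05, against 372 of 13614 over all genes. With E5 and NE4 both left out, 2 of 31 collagen genes did, against 340 of 13497 over all genes.

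The log2 fold change (E over NE) was above 0 for 6221 of all genes tested (46.0%) and for 23 of the 32 collagen genes (71.9%). Its median was -0.01 over all genes and 0.40 over the collagens. The median was 0.69 over 10 fibrillar genes, of which 9 lay above 0. Over 4 basement membrane genes it was -0.06, with 1 above 0. It was 0.21 over 5 FACIT genes, with 3 above 0, and 0.41 over 13 other collagens, with 10 above 0. Without E5 the median of the collagens was 0.16 with 20 of 32 above 0. That of the fibrillar genes was then 0.30, with 9 of 10 above 0, that of the other collagens 0.15, with 8 of 13 above 0, and that of the FACIT genes -0.04, with 2 of 5 above 0. These medians are descriptions of the lists, since the chains of 1 molecule and the genes of 1 cell type are not independent. Over all tested genes, the FPKM of the 2 groups did not overlap for 94 (0.695%), and 0 collagen genes were among them.

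**Figure D2:**
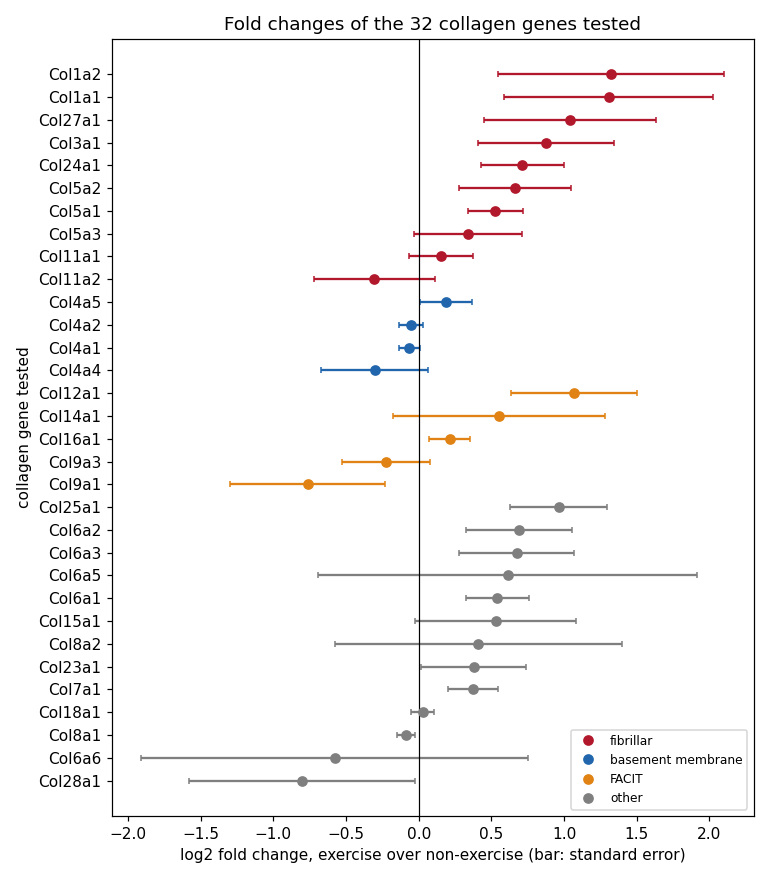
Log2 fold change, E over NE (horizontal axis), of the 32 collagen genes tested, with colors for the class. Bars are standard errors derived from edgeR's fold change and F statistic. Of the 10 fibrillar genes 9 lie right of 0, and Col4a1, Col4a2, Col18a1 and Col8a1 lie close to 0 with short bars.

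Of the fibrillar collagens, the type I and type III genes were the most abundant. Col3a1 (ENSMUSG00000026043) encodes type III collagen, which forms fine fibrils in soft and healing tissue. Its FPKM was 181, 218, 139, 271 and 728 in E1 to E5 and 75.4, 134, 143, 242 and 214 in NE1 to NE5. E5 had the highest and NE1 the lowest level, and the other 8 tumors of both groups overlapped between 134 and 271. By edgeR, E exceeded NE by 0.88 on the log2 scale (standard error 0.467, unadjusted p = 0.0885), and 19 of the 25 pairs of an E and an NE tumor were higher in E. An exact permutation of the tumors on log2(FPKM + 1), two-sided, gave p = 0.183, where the smallest p that 5 against 5 tumors allow is 0.00794. The FDR of this gene and of every other member was 0.897 or more.

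Col1a1 (ENSMUSG00000001506) and Col1a2 (ENSMUSG00000029661) encode the chains of type I collagen, the main protein of skin, tendon and bone. Col1a1 had 89.9, 132, 50.3, 159 and 596 FPKM in E1 to E5 and 15.4, 56.1, 61.6, 136 and 129.8 in NE1 to NE5. Col1a2 had 47.0, 67.4, 24.3, 88.4 and 321 FPKM in E and 5.67, 27.6, 30.1, 78.5 and 67.9 in NE. Both genes followed the same order in the extremes, with E5 at the top and NE1 at the bottom, and E3 below 4 of the NE tumors. Between its highest and lowest tumor, Col1a1 differed 38.7-fold and Col1a2 56.6-fold. The log2 fold changes were 1.31 (standard error 0.719) and 1.32 (standard error 0.778), and the exact permutation p was 0.214 and 0.238. Without E5 they were 0.39 and 0.38, and for Col3a1 0.28. Of the 5 most abundant members, the type I and III genes had the largest log2 fold changes, and none passed the test.

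Col5a1 (ENSMUSG00000026837) encodes the main chain of type V collagen, which sits inside type I fibrils and starts their assembly. It had 50.5, 58.7, 52.5, 61.7 and 103 FPKM in E1 to E5 and 47.9, 45.9, 42.2, 33.4 and 51.6 in NE1 to NE5. Only E1 lay below the highest NE tumor, NE5, so that 24 of 25 pairs were higher in E. The mean was 65.2 ± 21.4 FPKM (SD, n = 5) in the E tumors and 44.2 ± 6.92 in the NE tumors. On the log2 scale E was higher by 0.53 (standard error 0.189; edgeR unadjusted p = 0.0183, exact permutation p = 0.0159, FDR 0.897). Without E5 the fold change was 0.31 with an unadjusted p of 0.0215, and without E5 and NE4 it was 0.23 with 0.0260. Its partners in type V were less even. Col5a2 was at 30.9 ± 19.3 FPKM (SD, n = 5) in the E tumors and 18.8 ± 6.25 in the NE tumors, a log2 fold change of 0.66, and Col5a3 at 10.5 ± 5.21 and 8.06 ± 3.11 (SD, n = 5), a log2 fold change of 0.34. Without E5 these were 0.21 for Col5a2 and 0.03 for Col5a3.

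Col24a1 (ENSMUSG00000028197) is a minor fibrillar chain known from developing bone. It had 0.661, 0.795, 0.605, 0.948 and 1.74 FPKM in E1 to E5 and 0.460, 0.512, 0.577, 0.555 and 0.712 in NE1 to NE5, from 73 to 200 reads per tumor. Of the NE tumors only NE5 reached into the range of E. Its log2 fold change of 0.71 had a standard error of 0.283 (edgeR unadjusted p = 0.0294, exact permutation p = 0.0317, FDR 0.897). Without E5 the log2 fold change was 0.38 with an unadjusted p of 0.0701 by edgeR. Col27a1, a related minor fibrillar chain, was 1.04 higher in E on the log2 scale (standard error 0.593) at 0.372 ± 0.321 FPKM (SD, n = 5) in the E tumors and 0.173 ± 0.102 in the NE tumors. Without E5 its difference was 0.37. Col11a1, which like Col5a1 starts fibrils, was at 2.04 ± 0.589 and 1.80 ± 0.418 FPKM (SD, n = 5). Col11a2 was below 1 FPKM in every tumor, with a log2 fold change of -0.31 that turned to 0.03 without NE4.

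**Figure D3:**
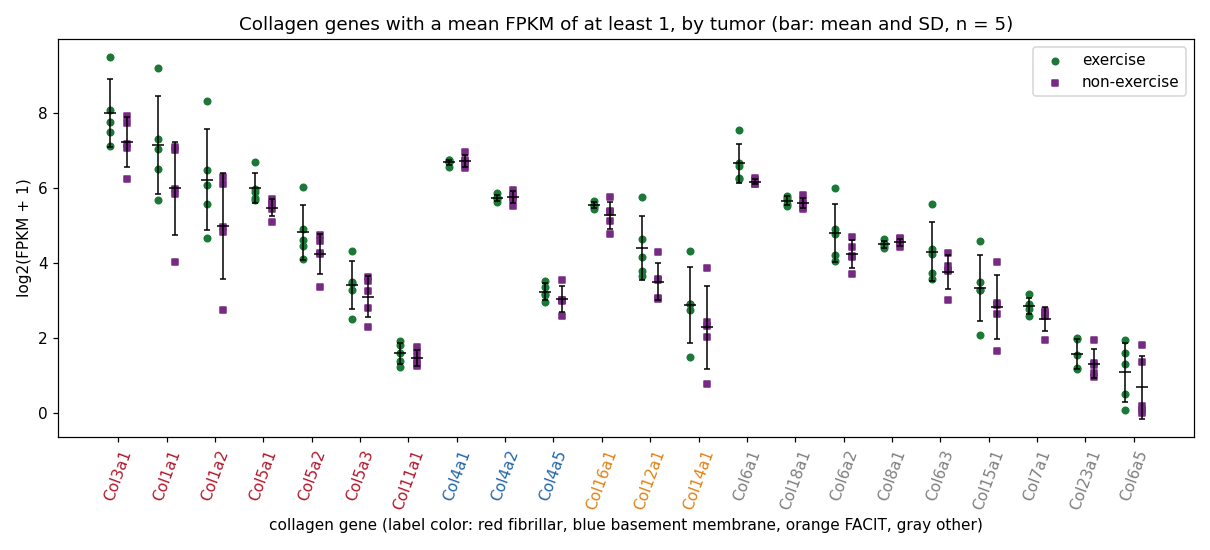
Level of the 22 collagen genes with a mean FPKM of at least 1, as log2(FPKM + 1) (vertical axis), with 1 point per tumor and the mean and SD of each group (n = 5). E5 is the top point of E for Col3a1, Col1a1 and Col1a2, and the points of Col4a1, Col4a2, Col18a1 and Col8a1 lie close together in both groups.

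The basement membrane chains were abundant and nearly level. Col4a1 (ENSMUSG00000031502) and Col4a2 (ENSMUSG00000031503) encode the chains of the type IV network found in nearly all basement membranes. Col4a1 had 103, 103, 107, 93.6 and 106 FPKM in E1 to E5 and 124, 91.8, 103, 98.1 and 107 in NE1 to NE5. Col4a2 had 53.8, 51.1, 52.4, 48.5 and 57.2 FPKM in E and 61.3, 44.7, 51.8, 53.4 and 55.8 in NE. NE1, which was lowest for the type I and III genes, was the highest tumor for both, and NE2 the lowest. By edgeR the log2 fold changes were -0.06 and -0.05, and their 95% intervals ran from -0.229 to 0.102 and from -0.230 to 0.125. Col4a5 (ENSMUSG00000031274), an X-linked chain of a second type IV network, had 8.02, 7.90, 10.6, 9.29 and 6.82 FPKM in E and 10.8, 7.13, 6.93, 4.99 and 6.99 in NE. Its levels overlapped, with a log2 fold change of 0.19 (95% interval -0.209 to 0.587) and an exact permutation p of 0.317. Without NE1 the fold change was 0.35 with an unadjusted p of 0.0379 by edgeR, and without NE4 it was 0.08. The partner chains Col4a3, Col4a4 and Col4a6, which the glomerulus and smooth muscle use, were all under 0.2 FPKM in every tumor.

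Among the 5 FACIT collagens tested, Col12a1 had the largest log2 fold change. Col12a1 (ENSMUSG00000032332) binds type I fibrils in tissue under tension. It had 12.8, 17.01, 11.6, 23.9 and 53.0 FPKM in E1 to E5 and 7.27, 10.7, 7.45, 10.8 and 18.5 in NE1 to NE5. Without NE5 the groups would not overlap, and 22 of 25 pairs were higher in E. The difference was 1.07 on the log2 scale (standard error 0.433; edgeR unadjusted p = 0.0320, exact permutation p = 0.0635, FDR 0.897). Without E5 it was 0.54 with an unadjusted p of 0.112.

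Col14a1 (ENSMUSG00000022371), a FACIT of mature tendon and skin, had 6.46, 6.49, 1.80, 5.73 and 19.1 FPKM in E1 to E5 and 0.692, 3.09, 4.02, 13.6 and 4.39 in NE1 to NE5. E5 and NE4 were far above the rest of their groups. Its log2 fold change of 0.55 (standard error 0.730) turned to -0.07 without E5 and was 1.36 without NE4. Col16a1 (ENSMUSG00000040690), which is found near fibrils and basement membranes, had 44.3, 46.2, 46.3, 42.7 and 49.1 FPKM in E and 52.9, 39.9, 33.9, 26.2 and 40.6 in NE. The E tumors lay close together inside the wider range of NE, and the log2 fold change was 0.21 (standard error 0.141). Without NE1 it was 0.34 with an unadjusted p of 0.0138 by edgeR, and without NE4 it was 0.11. The cartilage chains Col9a1 and Col9a3 had log2 fold changes of -0.76 and -0.22 at mean levels under 1.2 FPKM in both groups, and that of Col9a3 was -0.04 without E5.

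Type VI collagen was the most abundant of the other collagens. Col6a1 (ENSMUSG00000001119) encodes a chain that all its microfibrils contain. It had 76.8, 102, 75.2, 94.9 and 186 FPKM in E1 to E5 and 68.6, 73.6, 71.9, 67.8 and 75.9 in NE1 to NE5. NE was very even, and of the E tumors only E3 lay below the highest NE tumor, so that 24 of 25 pairs were higher in E. The mean was 107 ± 45.6 FPKM (SD, n = 5) in the E tumors and 71.6 ± 3.40 in the NE tumors. This is a log2 fold change of 0.54 by edgeR (standard error 0.219, unadjusted p = 0.0320, FDR 0.897), and the exact permutation p was 0.0159. Without E5 it was 0.25 with an unadjusted p of 0.0222. The unadjusted p by edgeR was 0.0600 without NE1, 0.0509 without NE2 and 0.0549 without NE3.

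Col6a2 (ENSMUSG00000020241) and Col6a3 encode the partner chains. Col6a2 had 17.6, 29.2, 15.7, 26.2 and 63.6 FPKM in E1 to E5 and 11.9, 16.9, 17.3, 25.003 and 20.4 in NE1 to NE5. E5 lay far above the highest NE tumor, NE4, and E2 and E4 just above it, while E1 and E3 lay within the range of NE. Its log2 fold change was 0.69 (standard error 0.366) and its exact permutation p 0.190, and without E5 the fold change was 0.24. Col6a3 was at 21.6 ± 14.7 FPKM (SD, n = 5) in the E tumors and 13.1 ± 4.01 in the NE tumors, a log2 fold change of 0.68, or 0.18 without E5. Col6a5 was low, with 0 to 2.87 FPKM, and Col6a6 and Col6a4 stayed under 1 FPKM in every tumor. Col6a5 and Col6a6 share 4.03% and 3.71% of their 50-base stretches with another gene, so reads could have been split between them.

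Col18a1 (ENSMUSG00000001435), a multiplexin of vessel basement membranes whose end fragment is endostatin, had 50.8, 52.8, 44.8, 46.8 and 54.6 FPKM in E1 to E5 and 47.1, 42.6, 50.5, 44.1 and 55.0 in NE1 to NE5. The groups covered the same range. The log2 fold change was 0.03 (95% interval -0.148 to 0.205), and it was just below 0 without E5 and without NE2. Col8a1, a short chain network collagen of vessel walls, was at 21.7 ± 1.55 FPKM (SD, n = 5) in the E tumors and 22.6 ± 1.59 in the NE tumors, with a log2 fold change of -0.09 (95% interval -0.227 to 0.0516). Col15a1, the other multiplexin, varied 10.8-fold between tumors, from 2.11 FPKM in NE1 to 22.9 in E5, with a log2 fold change of 0.53 (standard error 0.553) that was 0.06 without E5 and 1.06 without NE4. Col7a1, the anchoring fibril collagen of the skin, was at 6.33 ± 1.10 FPKM (SD, n = 5) in the E tumors and 4.79 ± 1.10 in the NE tumors, with a log2 fold change of 0.37 and an exact permutation p of 0.0556, and without NE4 the fold change was 0.25. Col23a1, a transmembrane collagen, was at 2.07 ± 0.862 and 1.55 ± 0.764 FPKM (SD, n = 5).

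Col25a1 (ENSMUSG00000058897), a transmembrane collagen known from neurons and muscle development, had the smallest unadjusted p of the family but very few reads. It had 23, 32, 30, 23 and 33 reads in E1 to E5 and 15, 24, 15, 8 and 20 in NE1 to NE5. Only NE2 reached into the range of E. The mean level was 0.118 ± 0.0329 FPKM for E against 0.0595 ± 0.0270 for NE (SD, n = 5). With edgeR the difference was 0.96 on the log2 scale (standard error 0.336, unadjusted p = 0.0161, FDR 0.897), and the exact permutation p was 0.0238.

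The 12 members that did not pass the filter were Col2a1, Col4a3, Col4a6, Col6a4, Col9a2, Col10a1, Col13a1, Col17a1, Col19a1, Col20a1, Col22a1 and Col26a1. Each had a mean FPKM under 0.25. A few reads at such levels do not show whether a cell type makes the chain. Col17a1 and Col22a1, named after their values were seen, had most of their reads in a single tumor. Col17a1, the hemidesmosome collagen of skin keratinocytes, had 269 of its 296 reads in NE5, the tumor with 130.2 CPM of keratinocyte markers. Col22a1, a collagen of the muscle-tendon junction, had 105 of its 156 reads in NE4, the tumor with the highest skeletal muscle markers. The part of these cell types in the reads was not tested.

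The pattern over tumors was partly shared by the members. Among the 22 members with a mean FPKM of at least 1, E5 was the highest tumor for 16 and NE1 the lowest for 12. The 4 members for which NE1 was highest were Col4a1, Col4a2, Col4a5 and Col16a1. NE4 was the lowest tumor for 5, Col5a1, Col6a1, Col7a1, Col16a1 and Col4a5. Col4a1, Col4a2, Col18a1 and Col8a1, which together held 22.8% of the collagen FPKM, differed only 1.21-fold to 1.37-fold between their highest and lowest tumors. Col1a1, Col1a2 and Col3a1, with 45.4%, differed 9.66-fold to 56.6-fold.

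**Figure D4:**
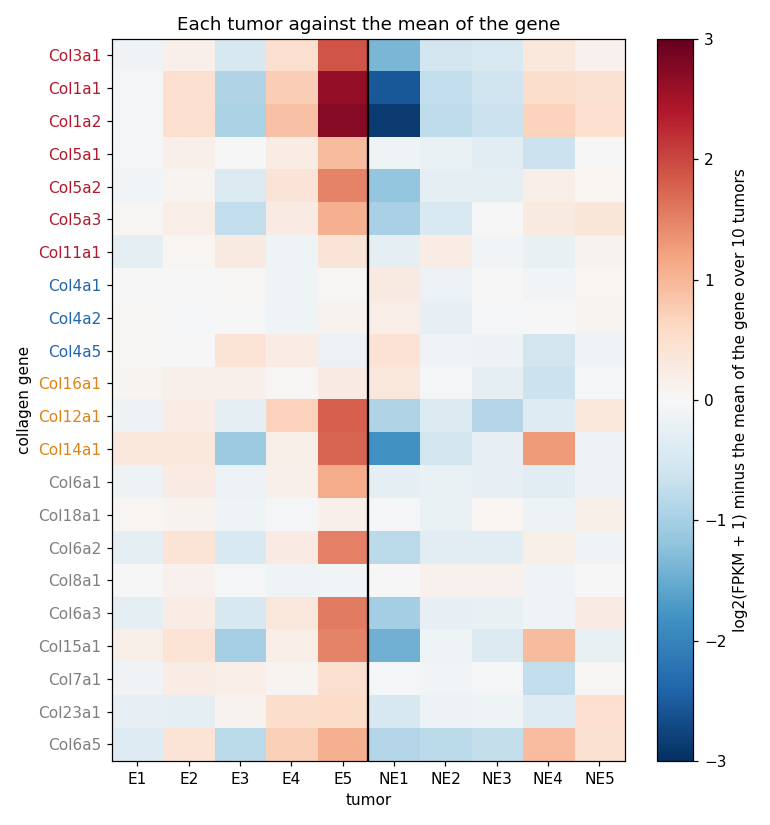
Each tumor's log2(FPKM + 1) minus the mean of the gene over the 10 tumors (color, red above and blue below), for the 22 collagen genes with a mean FPKM of at least 1. E5 is red and NE1 blue for most fibrillar, FACIT and type VI genes, and the rows of Col4a1, Col4a2, Col18a1 and Col8a1 are pale throughout.

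Chains that join in 1 molecule were compared across the 10 tumors, with 6 relations of log2(FPKM + 1) in all and p-values from 100000 permutations adjusted over the 6. Col1a1 and Col1a2 moved together, with Pearson's r = 0.998 (permutation p = 1e-05, adjusted 6e-05) and Spearman's rho = 0.988 (permutation p = 2e-05, adjusted 0.00012). This p of r is the smallest that the permutations can give. Without NE1 and E5, the tumors farthest from the median, r was 0.998. Col4a1 and Col4a2 had r = 0.898 (permutation p = 0.00092, adjusted 0.00184) and rho = 0.830 (permutation p = 0.00471, adjusted 0.00942) over a narrow range, and r = 0.733 without NE1 and NE2 (adjusted permutation p = 0.119). Col6a1 and Col6a2 had r = 0.910 (permutation p = 0.00207, adjusted 0.0031) and rho = 0.685 (permutation p = 0.0354, adjusted 0.0531). This relation rested on E5 and E2, without which r was 0.511 (adjusted permutation p = 0.304).

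Ratios of paired chains were also taken in each tumor. The FPKM of Col1a1 was 1.73 to 2.72 times that of Col1a2, while the levels themselves differed 38.7-fold or more. Reads of Col1a1 and Col1a2 over all tumors were nearly equal, at 170481 and 171303. The gene lengths behind the FPKM were 6563 and 12426 bases, so the size of this ratio depends on those lengths. The ratio of Col4a1 to Col4a2 stayed between 1.84 and 2.05. In GRCm38 these genes lie head to head on chromosome 8, and their annotated ends overlap by 22 bases. Col6a1 was 2.71 to 5.74 times as high as Col6a2 and 3.95 to 9.65 times as high as Col6a3. Col5a1 was 1.301 to 5.15 times as high as Col5a2, a 3.96-fold range against 3.07-fold for the level of Col5a1 itself, and Col3a1 1.22 to 4.89 times as high as Col1a1. NE1 had the highest ratio in all of these but Col4a1 to Col4a2. Of the 6 ratios, none differed between E and NE by the exact permutation test (smallest p = 0.286, all 0.857 after adjustment over the 6). For Col1a1 to Col1a2 the mean of E was 1.92 ± 0.103 and that of NE 2.09 ± 0.376 (SD, n = 5).

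**Figure D5:**
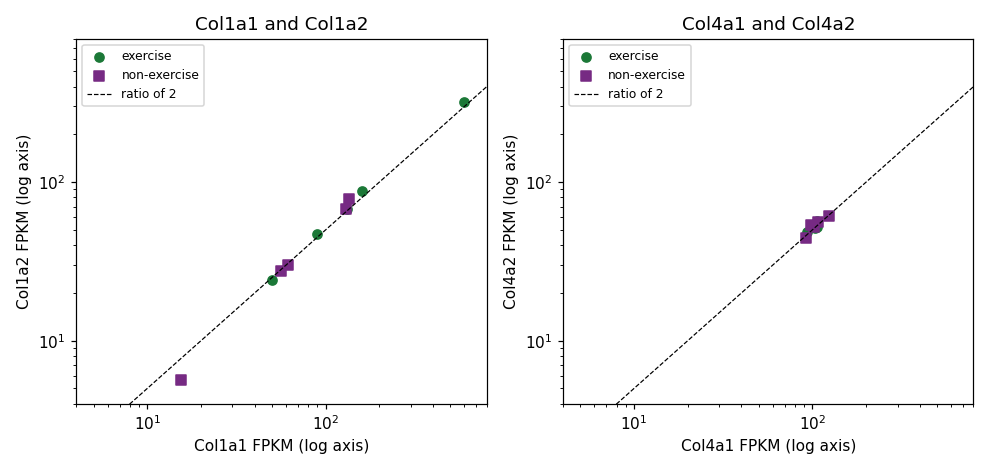
FPKM of Col1a2 against Col1a1 (left) and of Col4a2 against Col4a1 (right) on log axes of equal range, with 1 point per tumor. On the dashed line the FPKM of Col1a1 or Col4a1 is at a ratio of 2 to its partner, which depends on the gene lengths used. The type I points spread along the line from NE1 to E5, and the type IV points form 1 cluster.

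Markers of other cell types were set beside the collagen levels. The 8 fibroblast markers summed to 372, 425, 273, 495 and 949 CPM in E1 to E5 and to 164, 284, 345, 765 and 464 in NE1 to NE5. As for the fibrillar collagens, E5 was highest and NE1 lowest. Col1a1 and the fibroblast marker Pdgfra had r = 0.868 (permutation p = 0.0008, adjusted 0.00184) and rho = 0.891 (permutation p = 0.00124, adjusted 0.00372), and r = 0.616 without NE1 and E5 (adjusted permutation p = 0.178). Col4a1 and the endothelial marker Cdh5 had r = 0.298 (adjusted permutation p = 0.408) and rho = 0.345 (adjusted 0.328), and r = -0.109 without NE1 and NE2. Col1a1 and the skeletal muscle marker Acta1 had r = 0.469 (adjusted permutation p = 0.194) and rho = 0.358 (adjusted 0.328). The pericyte and smooth muscle markers summed to 92.3 to 232 CPM in E and 70.8 to 226 in NE, and the endothelial markers to 127 to 226 and 118 to 209. The part of these cells in the differences between tumors was not tested.

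Collagen chains are processed by many other proteins, and 6 lists of them were examined beside the members. None of their genes was called. Of 16 tested genes of hydroxylation and folding, 12 had a log2 fold change above 0 and 2 had an unadjusted p of at most 0.05 by edgeR. These were P4ha3, a subunit of prolyl hydroxylase (log2 fold change 0.74, edgeR p = 0.0265, exact permutation p = 0.0476), and Crtap, a partner of the prolyl 3-hydroxylase (0.18, edgeR p = 0.0485, exact permutation p = 0.0476). The most abundant were the collagen chaperone Serpinh1, with a mean of 541 FPKM over the 10 tumors, and P4hb, with 382. Of 6 genes of propeptide cleavage, 5 were above 0, and Bmp1, which removes the C-terminal propeptide of fibrillar collagens, had a log2 fold change of 0.36 (edgeR p = 0.0146, exact permutation p = 0.0159). Bmp1 was at 21.4 ± 4.54 FPKM in E and 16.3 ± 1.36 in NE (SD). Its enhancer Pcolce was the most abundant of this list, with a mean of 217 FPKM.

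Of the 5 lysyl oxidase genes, which cross-link chains, 4 were above 0. Loxl1 had a log2 fold change of 0.60 (edgeR p = 0.0169, exact permutation p = 0.0317) at 15.6 ± 5.04 FPKM in E and 9.97 ± 1.81 in NE, and Loxl3 0.35 (edgeR p = 0.0447, exact permutation p = 0.0238) at 51.2 ± 3.67 and 39.6 ± 9.67. Of the 7 fibril-binding proteins 5 were above 0. Log2 fold changes in this list ran from -1.58 to 0.68, and 0 of its genes were lower in E with an edgeR p of at most 0.05. Sparc, a collagen-binding glycoprotein, had a log2 fold change of 0.27 (edgeR p = 0.0431, exact permutation p = 0.0159) at 715 ± 149 FPKM in E and 581 ± 39.8 in NE. Fibronectin (Fn1) had a mean of 422 FPKM. Of the 9 collagen receptors 6 were above 0 and 0 had an unadjusted p of at most 0.05. The integrin subunit Itgb1, with a mean of 331 FPKM, and the receptor kinase Ddr2, with 35.8, were the highest.

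All 8 genes of collagen breakdown had a log2 fold change above 0, and 3 had an unadjusted p of at most 0.05 by edgeR. Mmp9, a gelatinase, had a log2 fold change of 1.25 (edgeR p = 0.0302, exact permutation p = 0.111). For Ctsk, a lysosomal collagenase, it was 1.03 (edgeR p = 0.0312, exact permutation p = 0.0952), and for Mmp14, a membrane-bound collagenase, 0.32 (edgeR p = 0.0495, exact permutation p = 0.0556). Mmp9 had 35.3, 37.7, 103, 17.7 and 73.0 FPKM in E1 to E5 and 23.8, 25.5, 26.6, 6.06 and 28.6 in NE1 to NE5. Here E3 was the highest tumor, and E4 lay below 4 NE tumors. Over the 6 lists, with 16, 6, 5, 7, 9 and 8 genes tested, all 9 genes with an unadjusted p of at most 0.05 were higher in E. Each had an FDR of 0.897. Over all 13517 genes tested, 657 (4.86%) had such a p by edgeR, and 347 (2.57%) had it with a higher level in E. A log2 fold change above 0 was found for 6221 (46.0%) of all genes tested. Of the 9 genes, the highest tumor was E5 for P4ha3, Crtap, Bmp1, Loxl1, Sparc and Mmp14, and E3 for Loxl3, Mmp9 and Ctsk. Fold changes of these lists with a tumor left out are not given here.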

How the data were processed

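mRNA libraries of 10 tumors (5 E, 5 NE) were examined. Groups and replicate numbers were taken from the labels. Per the submitters' notes and the methods, the authors mapped the reads by Hisat2 2.0, and Stringtie 1.3.0 gave expression. The methods name the rat genome build Rnor 6.0, whereas the table holds mouse Ensembl genes, and its own build is not given. The authors deposited unnormalized whole-number read counts per gene, and how they were obtained is not given in the sources used here. The deposited FPKM equal the counts scaled by gene length and total count, without TMM.

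From the counts, edgeR 4.0.16 (R 4.3.3) was run over all genes with TMM, filterByExpr by group, the quasi-likelihood test and Benjamini-Hochberg adjustment. The methods state thresholds and no test for the sequencing data. Single members were also tested by exact two-sided permutation of log2(FPKM + 1) (scipy 1.17.1, Python 3.11.15). Labels do not say whether tumors with the same number share a cage or day, and p-values measure the spread between mice. A level in CPM includes the TMM factor. The scripts were tested on simulated data. Exons and neighboring genes came from GENCODE on GRCm38, matched by Ensembl identifier, and no coordinates were converted.

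Collagens were tested with alternatives: no TMM, DESeq2 1.42.0, limma 3.58.1 on log2(FPKM + 1), other filters, the replicate number as a block, and each tumor left out. Leaving out E5 and NE4 together was chosen after seeing the data. Members given tumor by tumor were the 3 most abundant of each class and those with an unadjusted p of at most 0.05. Other members with a mean FPKM of at least 1 were given by their means, and pathway genes by such a p or as the 2 most abundant of a list. The members and lists were chosen with earlier results of these data known.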

Additional observations from a re-analysis of the deposited data

Results flagged for a closer look

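For 15 members and the collagen share of reads, the highest and lowest tumor of each group were compared with the other 4 by Dixon's test. Of 32 sets of 5 values, 9 held such a tumor. Chance gives about 1 in 20, or 1.6 of 32, only where values are normally distributed. The test was run on FPKM and percents without a log scale, so this rate may not hold here. The members move together, so these sets are not independent. In 8 of the 9 the tumor was E5. It stood above the other E tumors with 728 FPKM of Col3a1, 596 of Col1a1, 321 of Col1a2, 186 of Col6a1, 103 of Col5a1, 63.6 of Col6a2 and 19.1 of Col14a1, and with 2.20% of its reads on collagen genes. In the remaining set NE4 stood above the other NE tumors with 13.6 FPKM of Col14a1. E5 also had the highest fibroblast marker sum (949 CPM), neutrophil marker sum (287 CPM) and the fewest counted reads (15045613), and NE4 the highest skeletal muscle marker sum. The part of these in the levels was not tested.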

How the results depend on the processing

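In all 18 alternatives 0 collagen genes were called. The number with an unadjusted p of at most 0.05 was 4 to 6 with another normalization, tool or filter, 2 to 7 when a tumor was left out (3 without E5, 2 without NE2, 3 without NE3), and 2 without E5 and NE4, and all of them were higher in E. Over all genes that number was 372 (without E5) to 1251 (without NE1) with a tumor left out, 401 without NE3, and 340 without E5 and NE4. Col5a1 kept such a p in all 17 refits. With a tumor left out, the log2 fold change of Col18a1 ran from -0.011 to 0.086 and that of Col14a1 from -0.071 to 1.36. That of Col18a1 was -0.0014 without E5, -0.011 without NE2 and -0.017 without E5 and NE4, and that of Col14a1 was -0.071 without E5 and 1.36 without NE4. The difference in the collagen share was 0.114 to 0.524 percentage points with a tumor left out. Without the 2 tumors farthest from the median, r was 0.733 for Col4a1 and Col4a2, 0.511 for Col6a1 and Col6a2, 0.616 for Col1a1 and Pdgfra, and -0.109 for Col4a1 and Cdh5. The cause of these changes was not tested. Col25a1 rests on 8 to 33 reads per tumor.

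The study speaks of matched pairs, but the labels do not say what a shared replicate number marks. Over all genes tested, the deviations of same-numbered tumors had r = 0.0355, -0.156, -0.0949, -0.325 and 0.316 for numbers 1 to 5. These correlations do not settle whether the tumors were paired. With the replicate number as a block, 10 of 32 collagen genes had an unadjusted edgeR p of at most 0.05 and 0 were called. That p was 0.00035 for Col12a1, 0.0365 for Col3a1, 0.0468 for Col1a1 and 0.0584 for Col1a2. Over all genes 714 of 13517 had such a p in that fit. Of the 5 tumors per group, only number 5 correlated best with its own number.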
